A study of Mus musculus with 17 samples.

Results

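The genes Per1, Per2, Tsc22d3, Fkbp5, Nr3c1, Klf9, Sgk1, Nr1d1, Dbp and Arntl were followed through RNA sequencing of mouse hematopoietic stem and progenitor cells. They are targets of the glucocorticoid receptor or parts of the circadian clock, and some are both. They were taken by gene symbol: 10 of the 35321 genes in the count table, and 10 of 10 were among the 14920 genes that passed the filter on low counts. Per1 was chosen by its measured level with the antibody at 72 h, so its values in the comparison of antibody with LPS alone at 72 h are given as a description. The others entered by name, with earlier results of these data known, to see whether they moved with Per1.

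The cells were sorted from the bone marrow of wild-type C57BL/6J mice. Every mouse received an injection into the peritoneum of phosphate buffered saline (PBS), of lipopolysaccharide (LPS), which comes from the outer membrane of bacteria and sets off inflammation, or of both LPS and a blocking antibody to the receptor of interleukin-10, a cytokine that restrains inflammation. There were 5 PBS libraries (titled day 0), 3 of LPS at 24 h, 3 of LPS with antibody at 24 h, 3 of LPS at 72 h and 3 of LPS with antibody at 72 h. The doses are 5 of LPS and 100 of antibody, in micrograms in the study design and in milligrams in the sample protocols, and the unit could not be settled. No group received the antibody without LPS, and all groups share the strain. Age, sex and the hour of the day at harvest are not stated in the sources used here, and the last bears on every clock gene below. Separate animals per library are not stated either, so the p-values measure the spread between these libraries, which may be partly technical.

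Glucocorticoids are adrenal hormones that bind the receptor encoded by Nr3c1, which moves to the nucleus and raises the transcription of target genes, Per1, Tsc22d3, Fkbp5, Klf9 and Sgk1 among them. The circadian clock is a feedback loop in which the product of Arntl (also called Bmal1) and its partner Clock activate the Per genes, Nr1d1 and Dbp through E-box elements. The Per products then inhibit that pair, and the Nr1d1 product represses Arntl. Adrenal hormone release follows the hour of day and rises in inflammation.

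Library totals ranged from 10516722 to 16006001 counts. LPS 24 h library 1 had a normalization factor of 0.799, against 0.947 to 1.12 in the other libraries. Levels are given in CPM, which are counts scaled to the library total after that total is multiplied by the normalization factor. The 10 progenitor markers (Kit, Cd34, Flt3 and others) were detected in every library. Their summed level was 2221 to 2938 CPM in PBS and 1524 to 1753 in LPS 24 h. It was 1683 to 2003 CPM in LPS with antibody 24 h. At 72 h it was 2252 to 2802 CPM in LPS and 1643 to 2326 in LPS with antibody. Markers of other cells were present as well. The 9 macrophage markers summed to 347 to 2359 CPM in PBS, 125 to 145 in LPS 24 h, 167 to 216 in LPS with antibody 24 h, 237 to 406 in LPS 72 h and 173 to 405 in LPS with antibody 72 h. The 7 B-cell and plasma-cell markers summed to 373 to 1325 CPM in PBS, 69.0 to 88.9 in LPS 24 h, 61.4 to 153 in LPS with antibody 24 h, 145 to 371 in LPS 72 h and 57.7 to 372 in LPS with antibody 72 h. The 8 erythroid markers summed to 80.5 to 226 CPM in PBS, 50.3 to 94.7 in LPS 24 h, 12.8 to 278 in LPS with antibody 24 h, 5.27 to 24.1 in LPS 72 h and 4.17 to 72.1 in LPS with antibody 72 h. The 8 T and NK markers ranged from 69.4 to 281 CPM and the 7 neutrophil markers from 11.9 to 1452 CPM over all libraries. Up to 5 erythroid, 3 T and NK, 2 B-cell and 1 neutrophil markers were at 0 in a library, and no progenitor or macrophage marker was. The part of these cells in the results below was not tested. In bulk samples, fewer cells of a type and less RNA per cell cannot be told apart.

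In PBS, expression per kilobase of exon was highest for Fkbp5 (13.9 CPM per kb), Nr3c1 (11.8) and Tsc22d3 (10.6). The ranges of Fkbp5 and Nr3c1 overlapped over the 5 libraries, as did those of Nr3c1 and Tsc22d3. Per1 (4.73 CPM per kb) and Dbp (4.13) followed, and Per2 (2.80), Arntl (2.67), Nr1d1 (2.64), Klf9 (2.33) and Sgk1 (2.08) were lowest, each overlapping its neighbour in this order.

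Per1, a clock repressor that is also a direct glucocorticoid target, was high in the antibody libraries at 72 h and uneven within the antibody groups. In PBS it was at 36.1, 22.6, 29.2, 23.6 and 21.8 CPM. In LPS 24 h it was at 24.6, 22.5 and 53.7 CPM, and in LPS 72 h at 24.7, 25.1 and 22.8 CPM. In LPS with antibody it was at 103, 37.1 and 22.7 CPM at 24 h and at 156, 58.7 and 39.5 CPM at 72 h. All 3 antibody libraries at 72 h lay above all PBS and all LPS 72 h libraries, while at 24 h the antibody and LPS ranges overlapped. The group means were 26.6 ± 6.01 CPM (SD, n = 5) in PBS, 24.2 ± 1.23 (n = 3) in LPS 72 h and 84.6 ± 62.3 (n = 3) in LPS with antibody 72 h. With the antibody at 72 h the log2 difference was 1.80 (SE 0.53) against LPS 72 h and 1.67 (SE 0.45) against PBS; both use the libraries that chose Per1 and carry no test. Without antibody library 1 of each time point they were 1.06 and 0.90. At 24 h, which the choice did not use, LPS with antibody minus PBS was 1.02 (SE 0.45, adjusted p = 0.110) and LPS with antibody minus LPS was 0.69 (SE 0.52, adjusted p = 1). LPS alone gave 0.34 at 24 h (adjusted p = 0.590) and, with no test since those libraries were used in the choice, -0.14 at 72 h.

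**Figure D1:**
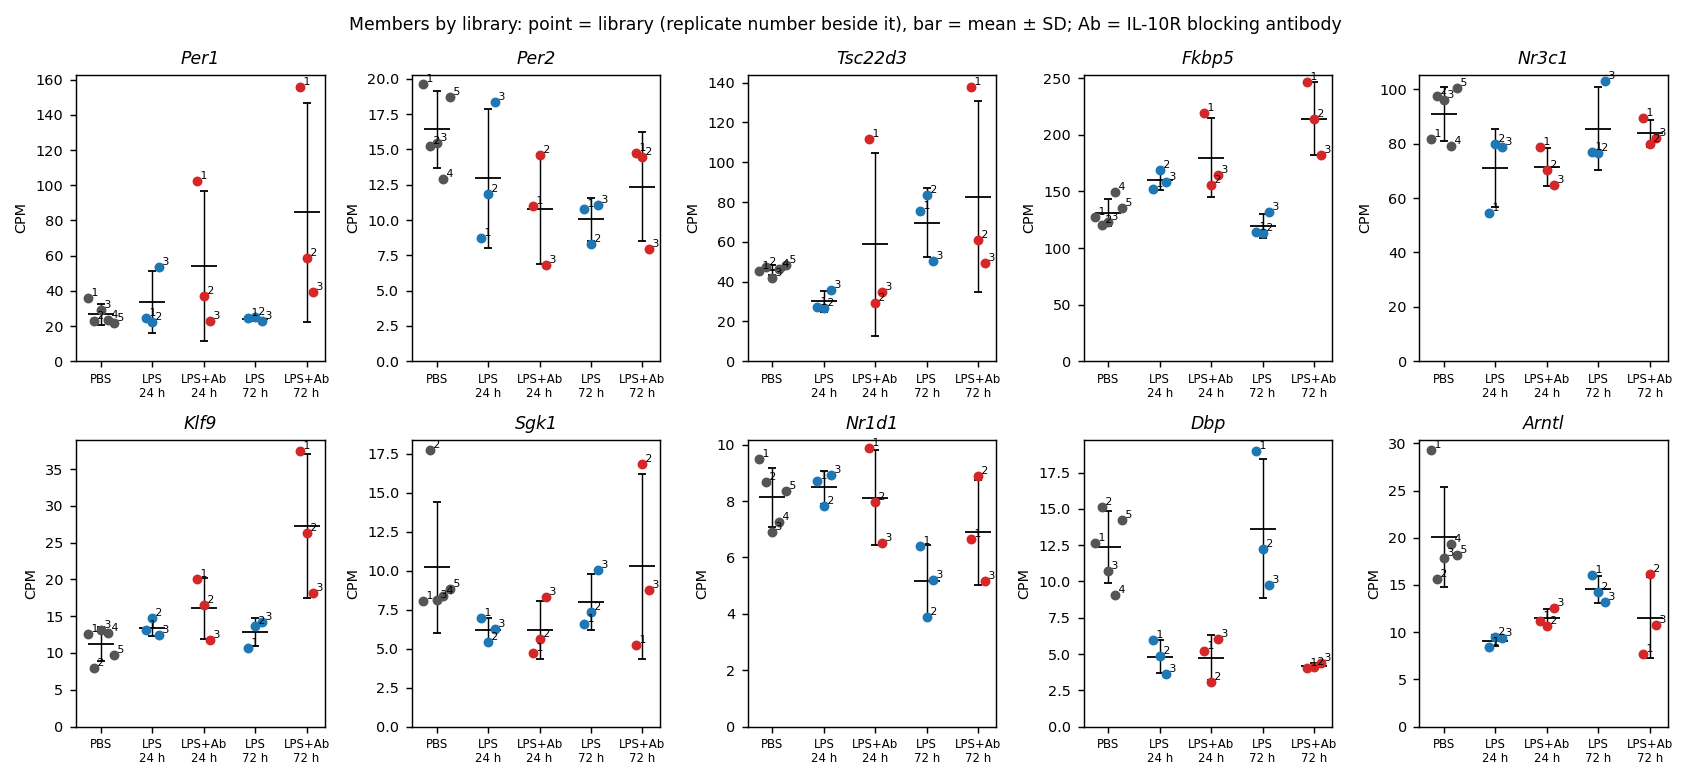
Level of each of the 10 genes in every library (CPM, linear axis from 0; each panel has its own scale), with the replicate number beside each point and the mean ± SD as a bar. Per1 reaches 103 and 156 CPM in the antibody libraries numbered 1, and Dbp lies between 4.04 and 4.38 CPM in all 3 LPS with antibody 72 h libraries.

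Fkbp5, a co-chaperone that lowers the receptor's affinity for hormone and is itself hormone-induced, was higher than PBS in both antibody groups. It was at 127, 120.1, 123, 149.5 and 136 CPM in PBS, at 152, 169 and 158 in LPS 24 h and at 114, 113 and 132 in LPS 72 h. With the antibody it was at 219, 155 and 165 CPM at 24 h and at 246, 214 and 183 CPM at 72 h. The 72 h antibody libraries were above every PBS library and every LPS 72 h library. Against PBS, LPS with antibody rose by 0.46 at 24 h (log2, SE 0.13, adjusted p = 0.0204) and by 0.71 at 72 h (SE 0.13, adjusted p = 0.00710; 1.63-fold). LPS alone differed from PBS by 0.29 at 24 h (adjusted p = 0.0908) and by -0.13 at 72 h (adjusted p = 0.717). Without antibody library 1 the 24 h difference was 0.29 (adjusted p = 0.112), and the 72 h call was kept in each of 8 fits that left out 1 library.

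Klf9, a zinc-finger repressor of transcription induced by glucocorticoids, rose at 72 h with the antibody. It was at 12.6, 7.95, 13.2, 12.7 and 9.69 CPM in PBS, at 13.2, 14.7 and 12.4 in LPS 24 h and at 10.7, 13.6 and 14.2 in LPS 72 h. With the antibody it was at 20.02, 16.5 and 11.8 CPM at 24 h and at 37.5, 26.3 and 18.1 CPM at 72 h. The 72 h antibody libraries again lay above all PBS and all LPS 72 h libraries. The change against PBS was 1.28 at 72 h (log2, SE 0.23, adjusted p = 0.00710; 2.43-fold), called in each of 8 fits that left out 1 library, and 0.52 at 24 h (SE 0.23, adjusted p = 0.111). Of 8 related KLF genes, none was called at 72 h with the antibody against PBS (median log2 change 0.28, against -0.0025 for all genes tested).

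Tsc22d3, the glucocorticoid-induced leucine zipper that restrains inflammatory signalling, was highest in the same 2 antibody libraries as Per1. It was at 45.6, 47.3, 42.1, 46.3 and 48.1 CPM in PBS, at 27.4, 26.7 and 35.98 in LPS 24 h and at 75.3, 83.4 and 50.2 in LPS 72 h. With the antibody it was at 112, 29.3 and 35.04 CPM at 24 h and at 138, 60.8 and 49.5 CPM at 72 h. All 3 LPS 24 h libraries were below, and all 3 LPS 72 h libraries above, every PBS library. None of its 4 differences from PBS passed the test: they were -0.61 (adjusted p = 0.232) and 0.60 (adjusted p = 0.553) for LPS at 24 and 72 h, and 0.36 (adjusted p = 0.512) and 0.85 (adjusted p = 0.1304) with the antibody. It was 1.21 higher in LPS 72 h than in LPS 24 h (log2, SE 0.43, adjusted p = 0.0436), a call kept in 1 of 6 fits that left out 1 library.

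Sgk1, a kinase of salt and survival signalling induced by steroids, and Nr3c1, the receptor itself, were not called in any of the comparisons tested. Sgk1 ranged from 8.04 to 17.7 CPM in PBS, 5.42 to 6.95 in LPS 24 h, 4.69 to 8.29 in LPS with antibody 24 h, 6.598 to 10.02 in LPS 72 h and 5.21 to 16.8 in LPS with antibody 72 h. Its log2 difference from PBS at 72 h with the antibody was 0.01 (SE 0.35). Nr3c1 ranged from 78.98 to 100.5 CPM in PBS, 54.6 to 79.9 in LPS 24 h, 64.7 to 78.6 in LPS with antibody 24 h, 76.5 to 103 in LPS 72 h and 79.7 to 89.4 in LPS with antibody 72 h. The corresponding difference of Nr3c1 was -0.12 (SE 0.14). With the antibody at 72 h, Fkbp5, Klf9 and Tsc22d3 lay above PBS without overlap and Sgk1 did not, where 26.9% of all genes did not overlap. Per1 also lay above PBS, in the libraries that chose it.

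The antibody libraries numbered 1 carried the highest levels of Per1, Tsc22d3 and Fkbp5, but not of every glucocorticoid target. Of 17 libraries, LPS with antibody 72 h library 1 was first and LPS with antibody 24 h library 1 second for Per1, Tsc22d3 and Fkbp5, and for Klf9 they ranked 1 and 3. Sgk1 went the other way, with ranks 16 at 72 h (5.21 CPM) and 17 at 24 h (4.69 CPM). LPS with antibody 24 h library 1 also had the highest erythroid marker sum of all libraries, 278 CPM against 80.5 to 226 in PBS, and library 1 at 72 h had 72.1 CPM. Their macrophage marker sums were 216 and 186 CPM, and their T and NK marker sums, 90.9 and 69.4 CPM, were the lowest of their groups. The part of these differences in the 4 genes was not tested.

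**Figure D2:**
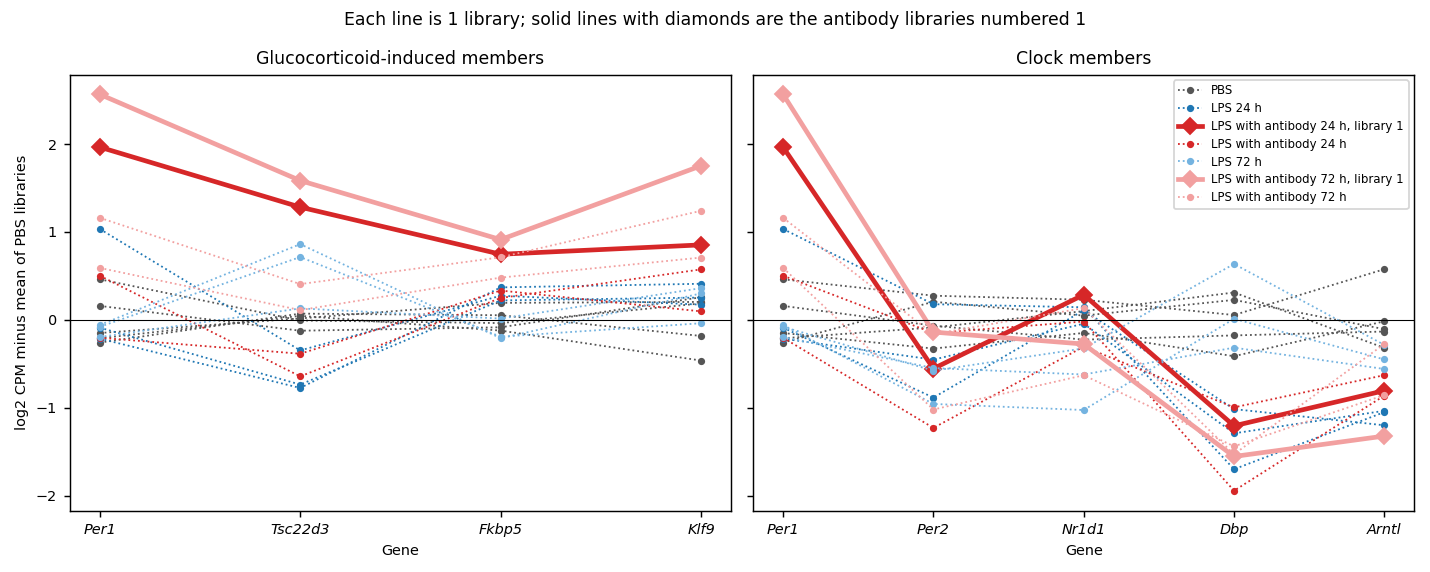
Level of 4 glucocorticoid-induced genes (left) and 5 clock genes (right) in each library, as log2 CPM minus the mean of the PBS libraries; a line joins the values of 1 library and carries no order among genes. The antibody libraries numbered 1 (solid, diamonds) are the 2 highest for Per1, Tsc22d3 and Fkbp5, whereas for Dbp they lie among the other antibody libraries and for Arntl the one at 72 h is lowest of all (7.74 CPM). Sgk1, also a glucocorticoid target, is not drawn, and these libraries ranked 17 (24 h) and 16 (72 h) of 17 for it.

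Per1, Fkbp5 and Klf9 share the antibody's direction at 72 h, and Dbp the opposite one, and the promoters of these 4 are shown with that of Sgk1, which holds the full receptor motif. The sequences are from RefSeq on build GRCm38.p6 and run from 250 bases before to 50 bases after an annotated start. RefSeq promoters were found for 8 of the 10 genes, 17 promoters in all, and none was taken for Per2 and Nr3c1. Capitals mark a match to CACGTG (the E-box that the Arntl and Clock products bind) or to GNACA and TGTNC separated by 3 bases (a glucocorticoid response element). The windows are chr11:69098699-69098998 on the plus strand for Per1, chr17:28486100-28486399 on the minus strand for Fkbp5, chr19:23140976-23141275 on the plus strand for Klf9, chr7:45704997-45705296 on the plus strand for Dbp and chr10:21993640-21993939 on the plus strand for Sgk1 (the fifth of its 6 promoters).
Per1: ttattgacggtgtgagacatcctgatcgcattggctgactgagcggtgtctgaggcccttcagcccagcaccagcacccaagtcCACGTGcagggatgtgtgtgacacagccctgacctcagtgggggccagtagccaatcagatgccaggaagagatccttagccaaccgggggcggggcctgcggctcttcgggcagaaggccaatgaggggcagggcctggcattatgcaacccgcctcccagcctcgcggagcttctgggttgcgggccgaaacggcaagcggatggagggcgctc
Fkbp5: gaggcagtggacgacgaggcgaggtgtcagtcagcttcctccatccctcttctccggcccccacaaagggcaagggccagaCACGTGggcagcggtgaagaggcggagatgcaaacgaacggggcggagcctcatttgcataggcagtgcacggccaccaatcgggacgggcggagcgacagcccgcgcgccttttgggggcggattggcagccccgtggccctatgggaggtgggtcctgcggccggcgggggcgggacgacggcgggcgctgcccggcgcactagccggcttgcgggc
Klf9: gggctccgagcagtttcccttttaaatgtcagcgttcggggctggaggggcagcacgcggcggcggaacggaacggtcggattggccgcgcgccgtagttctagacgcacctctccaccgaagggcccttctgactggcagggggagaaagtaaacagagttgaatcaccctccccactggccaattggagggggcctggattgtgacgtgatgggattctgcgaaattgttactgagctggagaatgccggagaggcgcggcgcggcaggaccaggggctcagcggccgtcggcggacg
Dbp: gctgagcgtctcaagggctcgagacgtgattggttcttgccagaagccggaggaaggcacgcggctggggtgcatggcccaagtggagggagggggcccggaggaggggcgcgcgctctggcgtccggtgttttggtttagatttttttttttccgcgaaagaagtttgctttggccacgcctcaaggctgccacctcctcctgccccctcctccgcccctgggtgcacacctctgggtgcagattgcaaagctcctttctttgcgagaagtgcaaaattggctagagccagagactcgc
Sgk1: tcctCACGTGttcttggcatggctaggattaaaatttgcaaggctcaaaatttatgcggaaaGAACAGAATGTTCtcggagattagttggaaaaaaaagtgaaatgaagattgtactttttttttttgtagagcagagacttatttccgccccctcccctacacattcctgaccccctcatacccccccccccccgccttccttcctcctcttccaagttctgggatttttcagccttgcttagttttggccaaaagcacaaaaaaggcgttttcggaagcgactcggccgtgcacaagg
On either strand, CACGTG was present in 7.15% of 32851 promoters of this length, and in those shown of Per1 (166 bases before the start), Fkbp5 (169 before) and Sgk1 (246 before). The Per1 promoter shown is its promoter 1, and its promoter 2 (chr11:69099902-69100201, not shown) had no CACGTG. The response element was present in 0.475% of all promoters and, among the 17, in the Sgk1 promoter shown (188 before). TAGGTCA, an element bound by the Nr1d1 product, was present in 2.61% of all promoters and in 1 of Arntl, 31 bases after the start. TGACGTCA, the cAMP response element (1.79% of all), and TTANGTAA, the D-box bound by the Dbp product (2.32% of all), had no match in the 17. None of these motifs overlapped another. A match describes letters only, and no match says only that the letters are not in this window.

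Dbp, a transcription factor of the clock's output, was the member with the steepest fall. It was at 12.6, 15.1, 10.7, 9.08 and 14.2 CPM in PBS and at 5.93, 4.88 and 3.64 in LPS 24 h. In LPS 72 h it was at 18.97, 12.3 and 9.73 CPM. With the antibody it was at 5.18, 3.05 and 6.02 CPM at 24 h and at 4.04, 4.11 and 4.38 CPM at 72 h. Both 24 h groups and the 72 h antibody group lay below every PBS library, and the LPS 72 h group overlapped PBS. Against PBS it fell by 1.36 in LPS 24 h (log2, SE 0.27, adjusted p = 0.00182), by 1.38 in LPS with antibody 24 h (SE 0.27, adjusted p = 0.00541) and by 1.56 in LPS with antibody 72 h (SE 0.28, adjusted p = 0.00689). In LPS 72 h the difference from PBS was 0.14 (SE 0.25, adjusted p = 0.858), and from LPS 24 h it was 1.51 higher (SE 0.30, adjusted p = 0.00173). Each of these 4 calls was kept in every fit that left out 1 library.

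The difference of the antibody's effect on Dbp between 72 h and 24 h, an interaction term, was -1.69 (SE 0.42, adjusted p = 0.0297); it contains the 72 h comparison in which Per1 was noticed. At 24 h the antibody's effect was -0.01 (SE 0.30) and at 72 h -1.70 (SE 0.30, no test). The call was kept in 6 of 12 fits that left out 1 library, with adjusted p from 0.00938 to 0.0921. It was lost without LPS 24 h library 3 (0.0703), LPS 72 h library 1 (0.0921), LPS with antibody 24 h library 1 (0.0658) or 3 (0.0813), and LPS with antibody 72 h library 1 (0.0524) or 3 (0.0542). The other members were not called in this comparison, Fkbp5 coming nearest at 0.67 (SE 0.20, adjusted p = 0.0616), and Per1 (1.12, SE 0.74) was not tested. Of all genes 6.35% were called.

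Dbp shares 539 exonic bases, 18% of its exon length, with Sphk2 on the opposite strand, and Nr1d1 shares 263 bases, 8.55%, with Thra. Whether counting used the strand is not given in the sources used here, so reads in these stretches cannot be told apart. Sphk2 was at 44.5 ± 3.29 CPM in PBS and 39.9 ± 4.38 CPM in LPS with antibody 72 h and was called in none of the 9 comparisons. Its log2 difference was 0.01 in LPS 24 h and -0.16 in LPS with antibody 72 h against PBS.

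Arntl, the activator of the clock loop, was also lower at 24 h. It was at 29.3, 15.7, 17.8, 19.4 and 18.2 CPM in PBS, at 8.44, 9.48 and 9.38 in LPS 24 h and at 16.04, 14.3 and 13.2 in LPS 72 h. With the antibody it was at 11.1, 10.7 and 12.6 CPM at 24 h and at 7.74, 16.2 and 10.7 CPM at 72 h. Both 24 h groups lay below every PBS library, and the 72 h antibody group overlapped PBS. Against PBS it fell by 1.14 in LPS 24 h (log2, SE 0.23, adjusted p = 0.00191), a call kept in 8 of 8 fits that left out 1 library. It fell by 0.81 in LPS with antibody 24 h (SE 0.23, adjusted p = 0.0210), lost without antibody library 1 (0.0552) or 2 (0.0899). It fell by 0.80 in LPS with antibody 72 h (SE 0.23, adjusted p = 0.0336), kept in 3 of 8 such fits and lost without antibody library 1 (0.141) or 3 (0.108) or PBS library 1 (0.0622), 3 (0.0509) or 5 (0.0563). In LPS 72 h it was -0.47 from PBS (adjusted p = 0.443).

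Per2, the paralog of Per1 in the repressor complex, was not called with the antibody at 72 h against PBS (-0.41, SE 0.28, adjusted p = 0.334). It ranged from 12.9 to 19.7 CPM in PBS, 8.71 to 18.4 in LPS 24 h, 6.83 to 14.6 in LPS with antibody 24 h, 8.28 to 11.04 in LPS 72 h and 7.92 to 14.7 in LPS with antibody 72 h. All 3 LPS 72 h libraries lay below PBS, with a log2 difference of -0.71 (SE 0.29, adjusted p = 0.380), and it was not called in any comparison tested. Nr1d1, the repressor of Arntl, ranged from 6.88 to 9.49 CPM in PBS, 7.83 to 8.93 in LPS 24 h, 6.504 to 9.87 in LPS with antibody 24 h, 3.89 to 6.41 in LPS 72 h and 5.16 to 8.87 in LPS with antibody 72 h. LPS 72 h minus LPS 24 h was -0.72 (SE 0.24, adjusted p = 0.0328), a call kept in 2 of 6 fits that left out 1 library, and its difference from PBS at 72 h was -0.65 (adjusted p = 0.282).

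**Figure D3:**
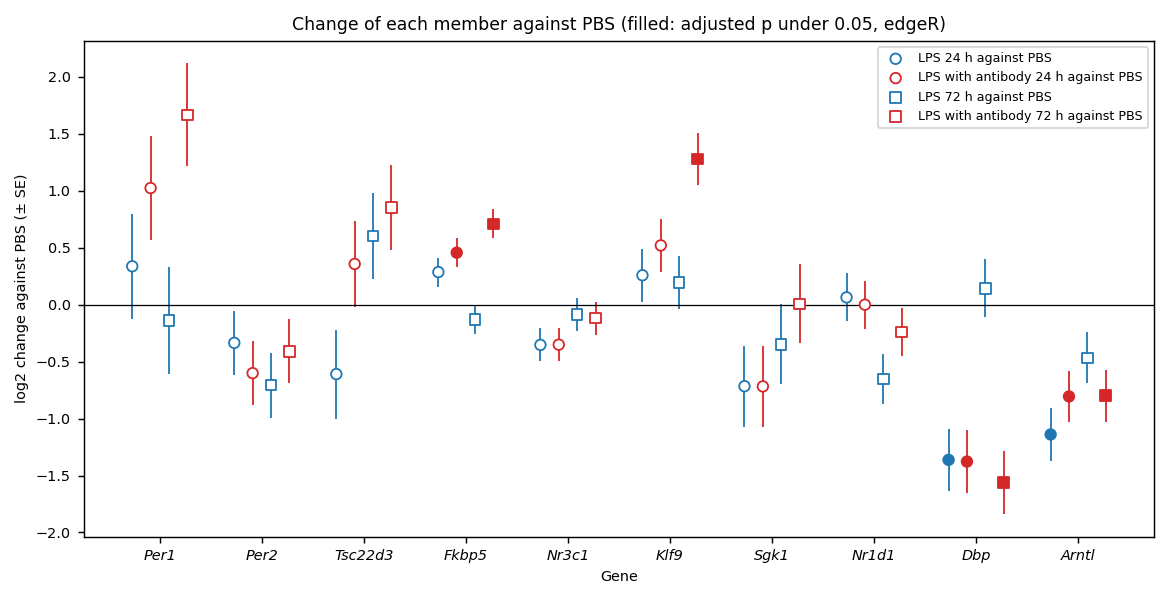
Log2 change of each gene against PBS (± SE, 4 groups; filled symbols have an adjusted p under 0.05 in edgeR). With the antibody at 72 h Per1, Fkbp5 and Klf9 lie above 0 (1.67, 0.71 and 1.28) and Dbp and Arntl below (-1.56 and -0.80); the Per1 value at 72 h rests on the libraries that chose it, was not tested and is drawn open.

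Counted over the 10 genes, LPS 24 h had 0 higher and 2 lower than PBS (Dbp and Arntl), where 19.1% of all genes tested were higher and 18.5% lower, 37.6% in all. LPS 72 h had 0 called where 0.0201% (3 genes) were called. There 2 of the 10 (Per2 and Nr1d1) and 1702 of all genes had an unadjusted p under 0.05, and the DESeq2 Wald test called 0 of the 10 and 178 of all genes. LPS with antibody 24 h had 1 higher (Fkbp5) and 2 lower (Dbp and Arntl), against 11.7% higher and 12.5% lower, 24.2% in all. In LPS with antibody 72 h, whose libraries chose Per1, the count is over the 9 other genes: 4 of 9 were called, 2 higher (Fkbp5 and Klf9; 6.81% of all genes) and 2 lower (Dbp and Arntl; 6.43%), against 13.2% of all genes in all. In that comparison 4 of the 9 (Fkbp5, Klf9, Tsc22d3 and Dbp) did not overlap between groups, against 26.9% of all genes. Without both antibody libraries numbered 1, an alternative chosen after seeing the data, 3 of the 9 were called at 72 h (Fkbp5 at 0.62, Klf9 at 1.00 and Dbp at -1.51) against 7.69% of all genes. The same alternative called 4 of 10 in LPS 24 h, against 42.2% of all genes, adding Tsc22d3 (-0.60, adjusted p = 0.00990) and Fkbp5 (0.30, adjusted p = 0.0315).

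Between LPS 72 h and LPS 24 h, 2 of 10 were higher at 72 h (Dbp and Tsc22d3; 14.7% of all genes) and 2 lower (Fkbp5 and Nr1d1; 16.4%), against 31.1% in all. The Fkbp5 difference was -0.42 (SE 0.14, adjusted p = 0.0392), kept in 1 of 6 fits that left out 1 library. The Fkbp5 and Tsc22d3 calls were kept without LPS 72 h library 3 (0.0348 and 0.0455) and lost without any of the other 5. The Nr1d1 call was kept without LPS 72 h library 1 (0.0267) or LPS 24 h library 2 (0.0424) and lost without any of the other 4. In the comparison of antibody with LPS at 72 h that chose Per1, 4 of 10 passed the threshold and the same 4 did not overlap (Per1, Fkbp5 and Klf9 higher, Dbp lower), beside 15.1% of all genes called (8.64% higher, 6.48% lower) and 33.2% not overlapping; nothing is read from these counts. There the log2 differences of Fkbp5, Klf9 and Dbp were 0.84, 1.09 and -1.70. Between antibody and LPS at 24 h, edgeR called 0 of 10 and 0% of all genes, 1 of 10 (Tsc22d3, 0.97) and 273 of all genes had an unadjusted p under 0.05, and DESeq2 called 1 gene of all. Between the antibody groups at 72 h and 24 h, edgeR called 0 of 10 and 0% of all genes, 1 of 10 (Klf9, 0.76) and 635 of all genes had an unadjusted p under 0.05, and DESeq2 called 2 genes of all.

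The median of all genes lay within 0.03 of 0 in each comparison. With upper-quartile scaling it moved to -0.16 in LPS 24 h and -0.11 in LPS with antibody 24 h against PBS, and to 0.13 between LPS 72 h and LPS 24 h. No called value of a member changed direction under it. The share of called genes that were higher went from 50.7% to 36.8% in LPS 24 h, from 48.3% to 32.5% in LPS with antibody 24 h and from 51.4% to 32.8% in LPS with antibody 72 h, each against PBS. It went from 57.1% to 42.4% between antibody and LPS at 72 h, from 47.2% to 59.2% between LPS 72 h and 24 h, and from 63.5% to 49.7% in the interaction.

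Of 20 other clock genes listed, 19 were tested (not Arntl2), and 0 were higher and 10 lower in LPS 24 h than in PBS, where 19.1% of all genes were higher and 18.5% lower. Their median log2 change was -0.44 against -0.03 for all genes. The greatest falls were those of Npas2, a partner of Arntl in place of Clock (-5.45), Bhlhe41, a repressor of the loop (-4.42), and Hlf (-2.08). Npas2 and Bhlhe41 were near the floor, so their log2 changes rest on few reads. The mean of Npas2 was 1.45 CPM in PBS, 0.0229 in LPS 24 h and 0.843 in LPS 72 h. That of Bhlhe41 was 1.22 CPM in PBS and 0.0425 in LPS 24 h. Hlf is also a stem cell marker, and the sums of the macrophage and B-cell markers given above were lower in LPS 24 h too. The part of the cell mixture in these falls was not tested. With the antibody 0 were higher and 7 lower at 24 h (11.7% and 12.5% of all genes), and 0 higher and 4 lower at 72 h (6.81% and 6.43%), among them Rora (-1.13), Per3 (-1.02) and Nr1d2 (-0.62). Without both antibody libraries numbered 1, no gene of the list was called at 72 h against PBS, where 7.69% of all genes were. From LPS 24 h to LPS 72 h, where 14.7% of all genes were higher and 16.4% lower, 7 were higher, among them Npas2 (4.66), Rora (1.79), Hlf (1.54) and Nfil3, a repressor of D-boxes (0.88), and 1 lower (Cry1). None was called in LPS 72 h against PBS (2 at an unadjusted p under 0.05, median -0.27). The antibody against LPS at 72 h had 1 higher, the repressor Cry1 (0.57), and the interaction had none. Leaving out 1 library gave 3 to 8 calls in LPS with antibody 24 h (3 without its library 2), 0 to 6 in LPS with antibody 72 h (0 without its library 1 or 3 and 1 without PBS library 2, 3 or 5) and 3 to 8 between LPS 72 h and 24 h (3 or 4 without LPS 24 h library 1 or 3 or LPS 72 h library 1 or 2). It gave 0 to 4 between antibody and LPS at 72 h, every library moving the count by over 1.5 times, and 2 in the interaction without LPS with antibody 24 h library 2. The share of all genes called fell in some of these fits too. Against PBS it went from 24.2% to 5.73% without LPS with antibody 24 h library 2. In LPS with antibody 72 h it went from 13.2% to 6.32%, 8.25% and 6.84% without PBS library 2, 3 and 5. The same fits gave the counts of the lists below.

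Other glucocorticoid-induced genes went both ways. Of 24 listed, 23 were tested (not Pdk4). In LPS 24 h 3 were higher and 8 lower than PBS, beside 19.1% and 18.5% of all genes (median -0.19 against -0.03), led by Mertk, a receptor for dying cells (-6.89), Il7r, the interleukin-7 receptor (-3.20), Mt1, a metal-binding protein (2.06), and Cebpb, a myeloid transcription factor (1.503). With the antibody 5 were higher and 2 lower at 24 h, beside 11.7% and 12.5% of all genes, with Mt2 at 3.24 and Mt1 at 2.37. At 72 h, beside 6.81% higher and 6.43% lower of all genes, 3 were higher, Mt1 (1.87), the decoy receptor Il1r2 (1.68) and Cebpb (1.18), and Mertk was lower (-3.40), with a median of 0.09 against -0.0025 for all genes. Without both antibody libraries numbered 1, 2 were higher and 0 lower there, where 7.69% of all genes were called. Mertk is also among the macrophage markers and Il7r among the T and NK markers, and inflammatory signals induce Mt1, Cebpb and Il1r2 as well. The antibody against LPS at 72 h had 0 higher and 1 lower, Rgs2 (-1.18), beside 8.64% and 6.48% of all genes, with a median of 0.28 against 0.01. From LPS 24 h to 72 h 5 were higher and 2 lower, beside 14.7% and 16.4% of all genes, with Il7r at 2.81, Pik3ip1 at 1.48, Rgs2 at 1.34 and Angptl4 at -1.24. In the interaction 0 were higher and Pik3ip1 was lower (-1.23), beside 4.03% and 2.32% of all genes; leaving out 1 library gave 0 to 3 there. Leaving out 1 library gave 7 to 10 calls in LPS 24 h (7 without its library 1), 3 to 9 in LPS with antibody 24 h (3 without its library 2) and 0 to 4 in LPS with antibody 72 h (0 without its library 1 and 1 without its library 3 or PBS library 3 or 5). Between LPS 72 h and 24 h it gave 4 to 9 (4 without LPS 24 h library 1 or LPS 72 h library 3), and between antibody and LPS at 72 h 0 to 2 (0 without library 1 of either group, 2 without antibody library 3).

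**Figure D4:**
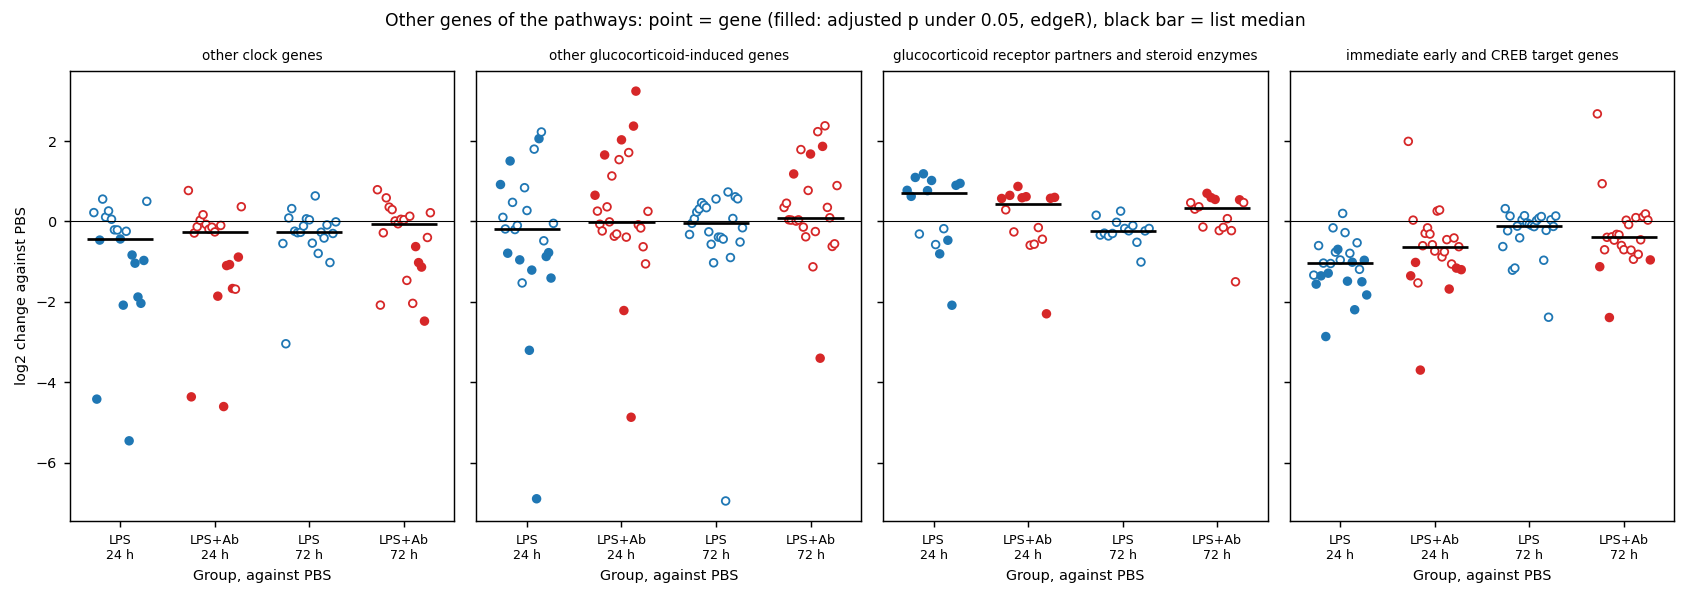
Log2 change against PBS of the tested genes of 4 lists in the 4 treated groups (each point is a gene, filled where the adjusted p is under 0.05 in edgeR; black bars are list medians). In LPS 24 h the medians are -0.44 for other clock genes, -0.19 for other glucocorticoid-induced genes, 0.70 for receptor partners and -1.03 for immediate early genes.

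Partners of the glucocorticoid receptor are mostly chaperones that hold it ready for hormone. Of 15 listed genes 14 were tested (not Hsd11b2). In LPS 24 h 8 were higher and 3 lower than PBS, beside 19.1% and 18.5% of all genes (median 0.70 against -0.03), including Hsp90aa1 (1.18), Fkbp4 (1.09) and Hspa8 (1.02), with the mineralocorticoid receptor Nr3c2 lower (-2.08). Nr3c2 was near the floor, with means of 1.04 CPM in PBS and 0.227 CPM in LPS 24 h. With the antibody 7 were higher and 1 lower at 24 h (11.7% and 12.5% of all genes), and 4 were higher and 0 lower at 72 h (6.81% and 6.43%): Hsp90aa1 (0.70), Hsp90ab1 (0.59), Hspa8 (0.55) and Ptges3 (0.54). Upper-quartile scaling left 2 of those 4, where 2007 of all genes were called (32.8% of them higher) in place of 1975 (51.4%). From LPS 24 h to LPS 72 h 8 were lower and 0 higher, beside 16.4% and 14.7% of all genes, with Hsp90aa1 at -1.48 and Fkbp4 at -1.38, and LPS 72 h had none called against PBS (2 at an unadjusted p under 0.05). The antibody against LPS at 72 h had 5 higher and 0 lower, beside 8.64% and 6.48% of all genes, with Hsp90aa1 at 1.00, Ptges3 at 0.77 and Dnaja1 and Stip1 at 0.64. In the interaction 4 were higher and 0 lower, beside 4.03% and 2.32% of all genes, Hsp90aa1 by 1.31. Without both antibody libraries numbered 1, 2 were higher in it, for which the share of all genes called is not given here. Leaving out 1 library gave 1 to 8 calls in LPS with antibody 24 h (1 without its library 2, 4 without PBS library 2) and 0 to 4 in LPS with antibody 72 h (0 without its library 3 or PBS library 2, 1 without PBS library 3 or 5). It gave 0 to 6 between antibody and LPS at 72 h (0 without LPS 72 h library 1, 1 without antibody library 3, 3 without LPS 72 h library 2). In the interaction it gave 0 to 7, with 0 without LPS with antibody 24 h library 1 or 3, LPS 72 h library 1 or LPS with antibody 72 h library 3, 1 without LPS 24 h library 1 or LPS 72 h library 2, and 7 without LPS 24 h library 2. These chaperones serve many other proteins besides the receptor.

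Immediate early and CREB target genes are switched on within minutes to hours of a stimulus. Of 24 genes 23 were tested (not Egr2), and 0 were higher and 11 lower in LPS 24 h than in PBS, beside 19.1% and 18.5% of all genes (median -1.03 against -0.03), with Egr3 at -2.86, Nr4a1 at -2.19, Zfp36 at -1.83 and Btg2 at -1.56. Egr3 was near the floor, with means of 0.776 CPM in PBS and 0.0979 CPM in LPS 24 h. With the antibody 0 were higher and 6 lower at 24 h (11.7% and 12.5% of all genes), and 0 higher and 3 lower at 72 h (6.81% and 6.43%): Egr3 (-2.39), Btg2 (-1.12) and Zfp36 (-0.96). Of these 3, 1 call was left without both antibody libraries numbered 1, where 7.69% of all genes were called. From LPS 24 h to LPS 72 h 10 were higher and 0 lower, beside 14.7% and 16.4% of all genes, with Zfp36 at 1.96, Btg2 at 1.88, Pde4b at 1.54 and Klf2 at 1.51. The antibody against LPS at 72 h had 0 higher and 2 lower, Btg2 (-1.44) and Zfp36 (-1.09), beside 8.64% and 6.48% of all genes. The interaction also had 0 higher and these 2 lower (-1.65 and -1.72), beside 4.03% and 2.32%. Leaving out 1 library gave 6 to 13 calls in LPS 24 h (6 without its library 1), 1 to 7 in LPS with antibody 24 h (1 without its library 2) and 1 to 2 in LPS with antibody 72 h (2 without its library 2, 1 without any of the other 7). Between LPS 72 h and 24 h it gave 5 to 9 (5 without LPS 24 h library 1, 6 without LPS 72 h library 1), between antibody and LPS at 72 h 1 to 3 (1 without any antibody library or LPS 72 h library 1), and in the interaction 1 to 3, with 1 in 9 of 12 fits.

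Across the 17 libraries, which share the treatments, the genes nearest to Per1 in log2 CPM were Sipa1l1 (Pearson r 0.949), Atg16l1 (0.939), Stat3 (0.921), Trak2 (0.917) and Rab11fip1 (0.916), among genes at or above the median expression. Of the members, Klf9 had an r of 0.824 (rank 96 of the 14920), Fkbp5 0.789 (rank 193), Tsc22d3 0.634 (rank 871), Per2 0.217 and Dbp -0.567. After group means were subtracted the nearest were Marchf8 (0.978), Stx2 (0.957), Uba7 (0.945), Oas2 (0.943) and Clasrp (0.939), and Tsc22d3 came to 0.843 (rank 415), Klf9 to 0.681, Fkbp5 to 0.604, Per2 to 0.598 (rank 2014) and Sgk1 to -0.533. Without both antibody libraries numbered 1 (15 libraries), the r of log2 CPM with Per1 was 0.824 for Sipa1l1, 0.773 for Atg16l1, 0.703 for Stat3, 0.720 for Trak2, 0.692 for Rab11fip1, 0.650 for Klf9, 0.550 for Fkbp5 and 0.0275 for Tsc22d3. The r after subtraction of group means was not computed without those libraries, where Per1 was highest (103 and 156 CPM). How far it rests on them was not tested.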

How the data were processed

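RNA from sorted bone marrow progenitors was sequenced in 17 libraries. The authors deposited a table of raw counts per gene, and the submitters' processing notes name HISAT2 2.2.0, Subread featureCounts 2.1.1, R 4.3.2, DESeq2 and GRCm38, with no role or order. Annotation, strandedness and filters are not given in the sources used here. All columns of per-sample values were used (0 left out).

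Genes were filtered with filterByExpr (minimum count 10, minimum total 15), scaled with TMM and tested with edgeR 4.0.16 (limma 3.58.1, R 4.3.3) by quasi-likelihood F-tests in 1 fit of all libraries with a mean per group. P-values were adjusted by Benjamini-Hochberg over all 14920 genes tested, with a threshold of 0.05, for each of 9 comparisons. "Called" means past it. SE is the log2 change divided by the square root of F, an approximation. Log2 CPM used a prior count of 2. The procedure was tested on simulated data.

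The members and lists were chosen with earlier results of these data known. The rule for names takes all 10 members, up to 4 called genes per list and comparison with the greatest change, and the 5 genes nearest to Per1; 1 gene that the rule names is not reported here. Correlations of deviations between same-numbered libraries were 0.191, 0.188 and 0.158 for LPS 24 h with PBS, over the 0.1 limit used for pairing. In no other comparison did all pairs exceed it. Between the antibody groups at 72 h and 24 h the values were 0.723, -0.0217 and 0.697, so libraries 1 and 3 went together and library 2 did not. The labels do not say what a number marks.

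The alternatives were DESeq2 1.42.0 (its size factors and its Wald test), upper-quartile factors, no filter, a fit of only the groups compared, a replicate block, and leaving out each library. Libraries numbered 1 to 3 without a block, and all libraries but both antibody libraries numbered 1, were added after seeing the data. Promoters came from RefSeq, gene positions from GENCODE on GRCm38.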

Additional observations from a re-analysis of the deposited data

Results flagged for a closer look

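Sgk1 was at 17.7 CPM in PBS library 2, apart from the other PBS libraries at 8.04 to 8.84 CPM. That library also had the highest macrophage (2359 CPM), B-cell and plasma-cell (1325 CPM) and neutrophil (1452 CPM) marker sums, whose part in the value was not tested. Arntl was at 29.3 CPM in PBS library 1, apart from the others at 15.7 to 19.4 CPM. In all 10 gene and group pairs were large enough to be looked at for a library apart, and chance gives about 1 in 20.

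Dbp differed between 24 h and 72 h in the antibody's effect, by -1.69 on the log2 scale (adjusted p = 0.0297 in edgeR). The call was lost in some of the 12 fits that left out 1 library, as given above, and with the replicate block. At 72 h all 3 antibody libraries lay below all 3 LPS libraries, where 33.2% of all genes did not overlap, and at 24 h they overlapped.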

How the results depend on the processing

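Of the 10 genes, Per1 included, the number called changed by over 1.5 times in these settings. With the replicate block it was 0 in LPS with antibody 24 h and 0 in LPS with antibody 72 h against PBS, 0 between antibody and LPS at 72 h, 2 between LPS 72 h and 24 h and 0 in the interaction. The block kept both calls in LPS 24 h (Dbp, adjusted p = 0.00511; Arntl, 0.0117), the comparison whose numbers met the pairing limit. The same libraries, numbered 1 to 3, without a block called 1 and 0 in the antibody groups at 24 h and 72 h. Fitting just the libraries of the groups in question called 2 between antibody and LPS at 72 h and 0 in the interaction. For these fits and those of libraries numbered 1 to 3, the share of all genes called is not given here. Calls lost there therefore cannot be set beside it. No filter called 2 between LPS 72 h and 24 h (4131 genes of all), and the DESeq2 Wald test 2 in the interaction (1673 genes of all). Without both antibody libraries numbered 1, LPS 24 h had 4 (42.2% of all genes) and LPS with antibody 72 h had 3 (7.69% of all genes). Leaving out 1 library gave 2 to 3 in LPS 24 h, 0 to 0 in LPS 72 h, 1 to 4 in LPS with antibody 24 h and 3 to 5 in LPS with antibody 72 h against PBS. It gave 0 to 0 between antibody and LPS at 24 h, 2 to 4 at 72 h, 1 to 3 between LPS 72 h and 24 h, 0 to 0 between the antibody groups and 0 to 1 in the interaction. The share of all genes called moved in these fits too. In LPS with antibody 24 h against PBS it was 23.0% without PBS library 1 and 5.73% without antibody library 2. Of the counts of the other lists in fits that left out 1 library, 84 moved by over 1.5 times and 256 did not. Called values kept their direction in every setting run; the cause of the lost calls was not tested beyond the fewer libraries that some settings use. At 3 libraries a group, a difference that missed the threshold does not show that groups were alike.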
